A study of Mus musculus with 2 samples.

Results

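Blood and endothelial specification genes were examined in nuclei of mouse embryos at embryonic day 7.0 (E7.0). The 10 genes were chosen by symbol among the 32285 gene rows: Etv2, Tal1, Lmo2, Runx1, Fli1, Erg, Kdr, Flt1, Tek and Cdh5. Each had 1 row. Peaks of open chromatin were added where they lay within 50 kb of the lowest or highest listed start of a member, which gave 212 of 229480 peaks, none near the starts of a pair of members. The listed starts of Runx1 and Erg spanned 130024 and 127348 bp, so the middle of those spans was not covered.

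The study pooled E7.0 embryos, dissociated them and isolated nuclei for 10x multiome profiling, in which RNA (as unique molecular identifiers, UMIs) and transposase-accessible DNA are read from the same nucleus. The series held 1 RNA library and 1 accessibility library of that pool, which share all 15341 barcodes, and no other condition or genotype. The characteristics give the strain as RedMUC298trTg, the cell type as goblet cells and the source as small intestine (RNA) or distal colon (accessibility), against the E7.0 of the titles, the age and the protocol. A list of 8 goblet and intestinal genes summed to 29.3 UMIs per 1000000 UMIs (CPM) over all barcodes and a list of 10 epiblast genes to 1871 CPM, so the nuclei are described here as embryonic. With 1 library per assay there are no replicates. No test was made, and the 95% Poisson and exact binomial intervals cover counting error only, not differences between embryos.

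Blood and endothelium arise together in the gastrulating mouse embryo, mostly from mesoderm that has left the primitive streak for the extraembryonic region. Etv2, an ETS-family transcription factor, acts for a short time at the top of this pathway and switches on Tal1, Lmo2, Fli1 and the VEGF receptor gene Kdr. Tal1, a basic helix-loop-helix factor, and its partner Lmo2 then drive blood formation, Runx1 is required for definitive blood cells, and Fli1 and Erg maintain endothelial genes such as the receptor gene Tek and the junction gene Cdh5. ETS factors bind DNA around GGAA, GATA factors around GATA, and some endothelial enhancers hold a joined site for FOX and ETS factors.

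Of the 10 genes, 7 had 11 promoters among the RefSeq promoter sequences used (build GRCm38.p6, 250 bases before to 50 after a start). Lmo2, Fli1 and Cdh5 had no entry among these sequences. The 4 below are shown because they cover the contrast described later. The Erg promoter at its downstream start and the Tek promoter lie in peaks that were far more accessible in haemato-endothelial-like nuclei, the Etv2 promoter overlaps a peak that was moderately so, and the Kdr promoter lies in a peak that differed little. Each is written 5′ to 3′ on the strand of the gene, with matches to a searched motif in capitals.

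Erg, chr16:95459299-95459598, minus strand: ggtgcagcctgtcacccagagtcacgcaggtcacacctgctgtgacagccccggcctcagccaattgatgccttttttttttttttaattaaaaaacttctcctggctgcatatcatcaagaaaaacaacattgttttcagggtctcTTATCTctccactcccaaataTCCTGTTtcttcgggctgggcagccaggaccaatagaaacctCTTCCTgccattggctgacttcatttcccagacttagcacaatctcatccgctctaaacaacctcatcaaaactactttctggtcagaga

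Tek, chr4:94739039-94739338, plus strand: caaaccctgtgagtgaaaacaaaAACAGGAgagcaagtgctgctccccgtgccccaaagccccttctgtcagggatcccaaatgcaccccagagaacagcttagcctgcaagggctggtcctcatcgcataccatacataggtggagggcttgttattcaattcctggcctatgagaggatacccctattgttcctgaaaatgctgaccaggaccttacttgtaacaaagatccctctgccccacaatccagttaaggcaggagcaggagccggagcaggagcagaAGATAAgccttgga

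Etv2, chr7:30635803-30636102, minus strand: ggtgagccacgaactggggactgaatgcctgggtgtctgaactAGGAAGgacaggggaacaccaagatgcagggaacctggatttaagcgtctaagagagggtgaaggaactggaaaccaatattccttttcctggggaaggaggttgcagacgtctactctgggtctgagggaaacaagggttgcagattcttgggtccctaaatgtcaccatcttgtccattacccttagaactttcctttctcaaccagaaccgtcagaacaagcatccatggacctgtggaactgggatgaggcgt

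Kdr, chr5:75978406-75978705, minus strand: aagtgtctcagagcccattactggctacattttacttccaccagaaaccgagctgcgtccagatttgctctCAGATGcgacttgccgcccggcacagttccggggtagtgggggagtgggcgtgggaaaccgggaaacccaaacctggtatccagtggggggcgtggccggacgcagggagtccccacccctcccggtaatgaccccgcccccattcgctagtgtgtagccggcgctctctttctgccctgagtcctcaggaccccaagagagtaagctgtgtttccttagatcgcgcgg

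Both strands were searched. For ETS factors the strings were AGGAAG, with the start A also allowed as C. For GATA factors they were AGATAA, with the start A also allowed as T. The E-box string of helix-loop-helix factors was CAGATG, with the second A also allowed as C in the form CAGCTG. The joined string for FOX and ETS factors was AACAGGA. The ETS and joined strings can share letters, but no printed match overlaps another. The joined string was found in 2 of the 11 member promoters, Erg and Tek, and in 6.40% of all 32851 promoters. GATA strings were in 3 (Erg, Tek and Tal1) against 18.6% of all, ETS strings in 4 against 46.5%, and E-box strings in 2 against 30.6%. The printed Erg promoter held a GATA, a joined and an ETS string at 103, 82 and 40 bases before its start. A match is a string of letters only, and with 11 promoters these shares describe this set.

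After filtering, 12796 nuclei remained (83.4% of barcodes), with medians of 10471 UMIs and 17350 peak counts. To keep the members out of the definition of the groups they were compared in, their RNA was read in classes from accessibility clusters built without the 212 peaks, and their accessibility in classes from RNA clusters built without the 10 genes. Clusters were named from marker lists that hold no member. The haemato-endothelial progenitor-like class held 250 nuclei by accessibility (1.95%; 1.72 to 2.21) and 285 by RNA. The 228 nuclei in both made up 91.2% and 80.0% of them. Of 14 markers fixed for the class, 11 had enough UMIs, and 10 were higher there than in all other nuclei (background 5.47%). Among them were Eng (76.3 against 5.83 CPM), Itga2b (16.9 against 0.952 CPM), Sox7 (48.2 against 4.84 CPM) and Esam (15.5 against 0.966 CPM). The class was named from this list, so these calls describe it and are no separate evidence for its name. Other mesodermal nuclei numbered 1801 by accessibility (1180 embryonic and 621 extraembryonic mesoderm-like). Non-mesodermal nuclei were those of the further named classes, 8213 by accessibility and 9032 by RNA. Nuclei in unnamed clusters were left out of these but counted among all other nuclei. Lists of other possible sources were summed in the haemato-endothelial-like class, and their part in the results was not tested. Immune genes summed to 1.41 CPM with 4 of 6 at 0, including Ptprc. Maternal erythroid and vessel genes summed to 23.6 CPM, with Hbb-bs and Hba-a1 at 0 and Vwf higher than in all other nuclei. Decidual genes summed to 19.7 CPM with 1 of 5 at 0 (Prl8a2) and Col1a2 higher than in all other nuclei, and goblet genes to 3.52 CPM with 6 of 8 at 0.

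All 10 members had higher RNA in the haemato-endothelial-like class than in all other nuclei. A gene was called when it differed at least 2-fold with an interval excluding 1 and had at least 50 UMIs in both groups together; 5.47% of the 17686 genes tested were called higher by this rule and 9.86% lower. Levels of single genes below are compared between classes within a gene, never between genes, since the UMIs were not scaled by length. Sums of different marker lists are unscaled too, so their sizes compare only roughly. Orders and ranges are over the 10 named classes. The 2532 unnamed nuclei were at 11.1 CPM for Etv2, 41.7 for Runx1, 1.77 for Fli1, 15.6 for Kdr and 134 for Flt1.

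Etv2, the early ETS factor, was at 297 CPM (277 to 318) in haemato-endothelial-like nuclei, 87.8 in extraembryonic mesoderm-like and 16.8 in embryonic mesoderm-like nuclei. The other named classes lay between 5.64 and 10.97 CPM. The 3 highest levels had intervals apart from each other, while that of embryonic mesoderm-like nuclei and each lower one overlapped its neighbour. Etv2 was 23.1-fold higher (21.2 to 25.0) than in all other nuclei and 7.39-fold higher than in other mesodermal nuclei. Other mesodermal nuclei were in turn 5.13-fold above non-mesodermal ones. Of its UMIs, 31.5% came from the haemato-endothelial-like class.

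Tal1 and Lmo2, which work in 1 complex, were more tightly placed. Tal1 was at 186 CPM (170 to 202) in the class, 12.1 in extraembryonic mesoderm-like nuclei and at most 1.31 in every other named class. Lmo2 was at 201 CPM (185 to 218), then 15.4, and at most 4.18 elsewhere. The folds over all other nuclei were 126 for Tal1 and 60.6 for Lmo2, and over other mesodermal nuclei 40.5 and 27.8. The class, 1.95% of nuclei, held 71.5% of all Tal1 UMIs and 54.7% of Lmo2 UMIs.

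Fli1, the ETS factor of blood and endothelium, was placed much like Tal1. It was at 379 CPM (356 to 402) against 2.89 CPM in all other nuclei, 131-fold (117 to 147; the Tal1 interval, 107 to 149, overlaps it). Over other mesodermal nuclei it was 27.0-fold, and the class held 72.3% of its UMIs. It was at 30.6 CPM in extraembryonic mesoderm-like nuclei, 5.87 in embryonic mesoderm-like nuclei and at most 1.10 CPM in the other named classes. The extraembryonic mesoderm-like UMIs lay in few of the 621 nuclei: 202 of Fli1 in 64, 102 of Lmo2 in 46, 80 of Tal1 in 39 and 64 of Tek in 27. In 4 settings in which the haemato-endothelial-like class held 361 to 415 nuclei, Tal1 and Tek were no longer called higher in other mesodermal than in non-mesodermal nuclei (values below), so a graded fall is not shown. Erg, its close relative, was scarcely detected: 19 UMIs in the class and 39 in all other nuclei, or 6.68 CPM (4.02 to 10.4) against 0.273. The difference from other mesodermal nuclei (19 against 4 UMIs) was under the minimum count. Embryonic mesoderm-like nuclei held 0 Erg UMIs, and below the class no neighbouring levels had intervals that stood apart.

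Runx1, the definitive blood factor, was highest in the class at 318 CPM (298 to 339) but was not restricted to it. Visceral endoderm-like nuclei were at 168 CPM (162 to 175), parietal endoderm-like at 108 and extraembryonic mesoderm-like at 101, the last pair overlapping. The remaining named classes lay between 9.14 and 25.2 CPM. Of Runx1 UMIs, 11.8% came from the haemato-endothelial-like class. The fold was 6.69 over all other and 6.32 over other mesodermal nuclei, and other mesodermal nuclei did not differ 2-fold from non-mesodermal ones (1.04; 0.973 to 1.12).

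Kdr, the main receptor for VEGF, marked mesoderm at large. It was at 561 CPM (533 to 589) in the class, 246 in extraembryonic and 137 in embryonic mesoderm-like nuclei, and between 5.21 and 13.9 CPM in all other named classes. Its fold was 17.5 over all other nuclei but 3.24 over other mesodermal nuclei, the smallest of the 8 called. In other mesodermal nuclei it was 22.9-fold above non-mesodermal nuclei, the largest of the members.

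Flt1, the VEGF receptor that acts largely as a trap for the ligand, followed another order. It was at 746 CPM (714 to 778) in the class, 486 in parietal endoderm-like and 471 in anterior streak, node and definitive endoderm-like nuclei, the last pair overlapping. Primitive streak-like (180 CPM) and embryonic mesoderm-like nuclei (169 CPM) came next and overlapped, above extraembryonic mesoderm-like nuclei (78.1 CPM). The parietal endoderm-like class matched poorly between the assays: 176 of its 335 nuclei (52.5%) had that name by RNA, where the class held 182, and its visceral endoderm markers summed to 10248 CPM beside 5664 CPM for the parietal ones. The 176 were 96.7% of the class by RNA. Its Flt1 and Runx1 levels (335 nuclei) and its peaks below (182 nuclei) therefore come from partly different nuclei. The Flt1 fold was 5.86 over all other nuclei, and 10.4% of Flt1 UMIs lay in the haemato-endothelial-like class.

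Tek, the angiopoietin receptor, resembled Tal1: 155 CPM (141 to 170) in the class, 9.69 in extraembryonic mesoderm-like nuclei and at most 2.75 elsewhere, 84.6-fold over all other nuclei. Cdh5, the endothelial junction cadherin, was the exception among the 10. Its highest level was 64.7 CPM (55.5 to 75.0) in ectoplacental cone and giant cell-like nuclei, with 8.79 CPM (5.69 to 13.0; 25 UMIs) in the haemato-endothelial-like class and at most 0.570 elsewhere. The plot of RNA by class shows these patterns side by side.

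**Figure D1:**
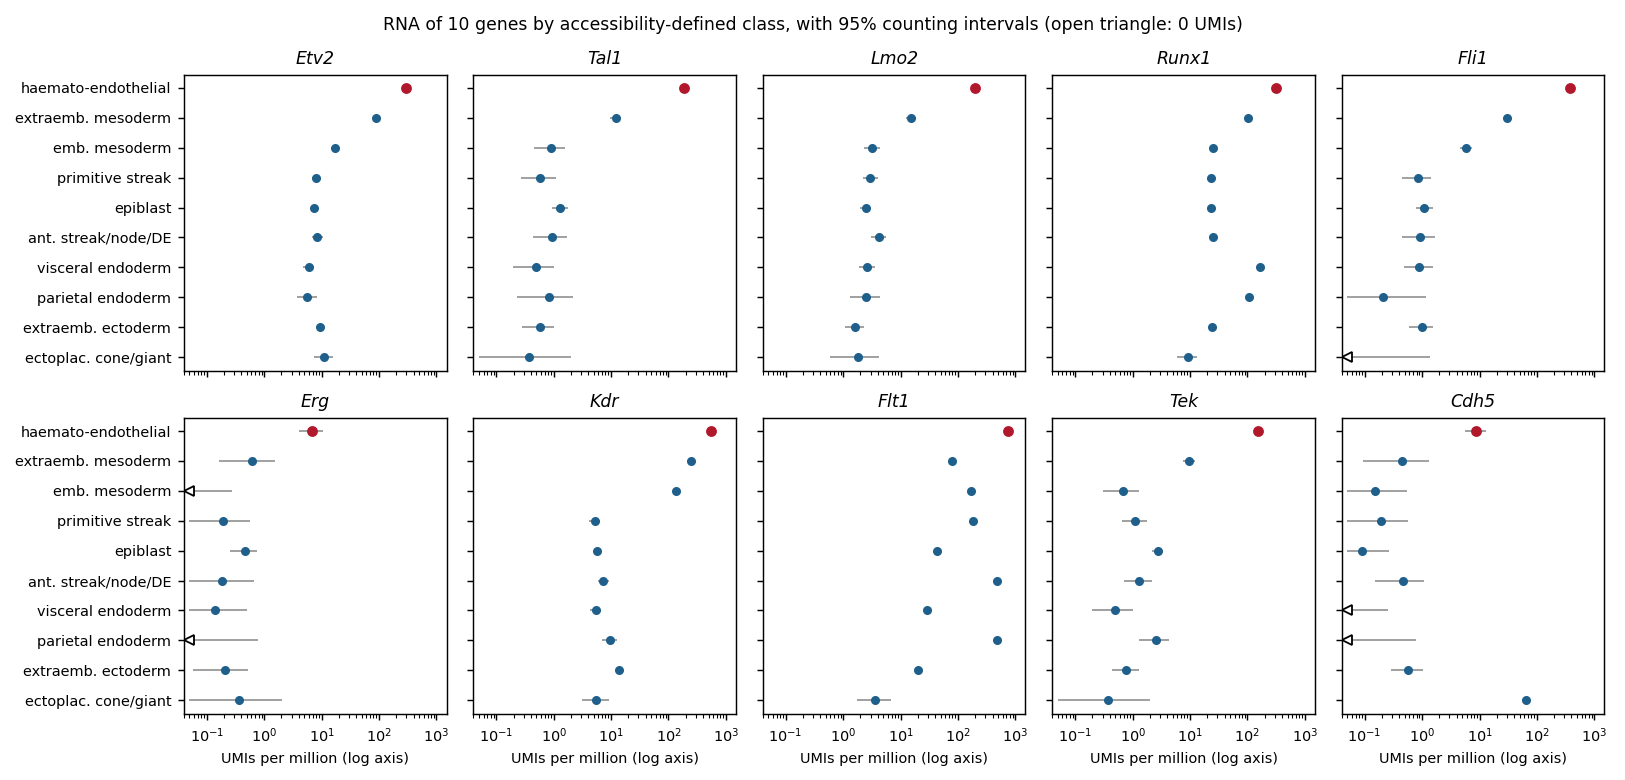
RNA of each gene in 10 classes named from accessibility clusters, as UMIs per 1000000 UMIs (CPM) on a log axis, with 95% Poisson intervals (counting error only) as bars. Red points are haemato-endothelial-like nuclei, which lead in every gene but Cdh5, where ectoplacental cone and giant cell-like nuclei lead at 64.7 CPM.

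Against other mesodermal nuclei, 8 of the 10 were called higher, 0 lower, and Erg and Cdh5 had too few UMIs (background 4.94% higher and 6.53% lower). All 8 stayed higher with other clustering, filters or scaling, but 5 of these folds moved by more than 1.5 times: Tal1 ranged from 36.5 to 193, Tek from 37.1 to 183, Lmo2 from 25.4 to 57.6, Fli1 from 24.3 to 52.6 and Etv2 from 7.11 to 11.6. Over all other nuclei Fli1 ranged from 121 to 205 and Cdh5 from 3.91 to 6.18. Between other mesodermal and non-mesodermal nuclei, 6 were called higher (Kdr, Fli1, Tal1, Etv2, Lmo2 and Tek; background 6.65%), Cdh5 was lower (0.125; background 13.7%), and Runx1 and Flt1 were not called. Of the 199 non-mesodermal Cdh5 UMIs, 177 lay in ectoplacental cone and giant cell-like nuclei. The other non-mesodermal classes held at most 0.570 CPM of Cdh5, beside 0.249 CPM in other mesodermal nuclei. The median log2 fold of the members tested was 4.57, 3.82 and 1.49 in the 3 comparisons, beside -0.08, -0.03 and -0.05 over all genes tested. The calls for Tal1 (5.41-fold) and Tek (2.34-fold) in this last comparison turned direction under other settings, and the 6 became 3 in 4 of them (resolution 0.5, 20 components, doublet calls kept, all peaks in the clustering). Tal1 came to 0.86 and Tek to 0.75 with coarser clustering (resolution 0.5), to 0.67 and 0.85 with doublet calls kept, and to 0.88 and 0.81 with all peaks in the clustering. Tek came to 0.44 with 20 components and to 0.93 in classes from RNA clusters. Of these, the interval excluded 1 for Tek with 20 components alone. With doublet calls kept Lmo2 came to 1.05 (2.81 as reported), Fli1 to 4.25 (15.3), Etv2 to 2.90 and Kdr to 14.1, and Runx1 reached 1.84 with minima of 2000 UMIs and 2000 peak counts.

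The Cdh5 signal of ectoplacental cone and giant cell-like nuclei came from few nuclei. Its 177 UMIs lay in 29 of 172 nuclei, up to 27 in 1 nucleus. Prl3d1, a hormone gene of trophoblast giant cells, was detected in 12 of these 29 (41.4%; 23.5 to 61.1) and in 6 of the 143 nuclei without Cdh5 (4.20%; 1.56 to 8.91). The endothelial genes Pecam1 and Esam were detected in 13 and 12 of the 29 and in 4 and 0 of the 143. For comparison, Flt1 was in 1 of 29 and 8 of 143, the endothelial gene Vwf in 2 and 3, and Ascl2, a factor of the ectoplacental cone, in 14 and 116. Fli1 had 0 UMIs in all 172, and Tek in all 29 and in all but 1 of the 143; 0 of 29 allows a share of nuclei with a UMI of up to 11.9% (exact), which does not bound the share expressing the gene. Kdr was in 7 of 29 and 5 of 143. The list of maternal erythroid and vessel genes summed to 93.2 CPM (82.1 to 105) in this class, with Selp at 0. Over all barcodes it summed to 4.74 CPM, and in the haemato-endothelial-like class to 23.6 CPM. The median depth was 17513 UMIs with Cdh5 and 11995 without. The part of maternal cells or RNA, depth or doublets in the Cdh5 signal and these shares was not tested.

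Members were then counted nucleus by nucleus, after every nucleus was thinned to 5000 UMIs and shallower nuclei were left out (240 of 250 haemato-endothelial-like, 569 of 621 extraembryonic and 1116 of 1180 embryonic mesoderm-like nuclei stayed). In the haemato-endothelial-like class, 217 of 240 nuclei held UMIs of at least 3 members (90.4%; 86.0 to 93.8), and 155 held at least 5 (64.6%). The median was 5 and the highest 9. In extraembryonic mesoderm-like nuclei 15.3% held at least 3 and in embryonic mesoderm-like nuclei 5.65%, while the other named classes lay between 0% (ectoplacental cone and giant cell-like) and 2.81% (parietal endoderm-like). Of all 438 nuclei with at least 3 members, 217 were haemato-endothelial-like, 87 extraembryonic mesoderm-like and 63 embryonic mesoderm-like. The share was 98.0% without thinning and 78.2% at 3000 UMIs, and 80.2% to 80.8% with coarser clustering, 20 components or doublet calls kept.

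Gene by gene, Kdr was detected in 90.8% of thinned haemato-endothelial-like nuclei, Flt1 in 79.6%, Etv2 in 62.1%, Runx1 in 58.3%, Fli1 in 57.5%, Tal1 in 56.7%, Lmo2 in 54.6%, Tek in 41.3%, Cdh5 in 3.75% and Erg in 2.50%. In extraembryonic ectoderm-like nuclei, a trophoblast class read for comparison, the shares were 0.689% for Fli1, 0.306% for Tal1, 0.918% for Lmo2, 0.459% for Cdh5 and 0.153% each for Tek and Erg. They were higher for Etv2 (5.20%), Kdr (6.58%), Flt1 (8.26%) and Runx1 (10.2%). The median depths before thinning were 10526.5 and 12363.5 UMIs.

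**Figure D2:**
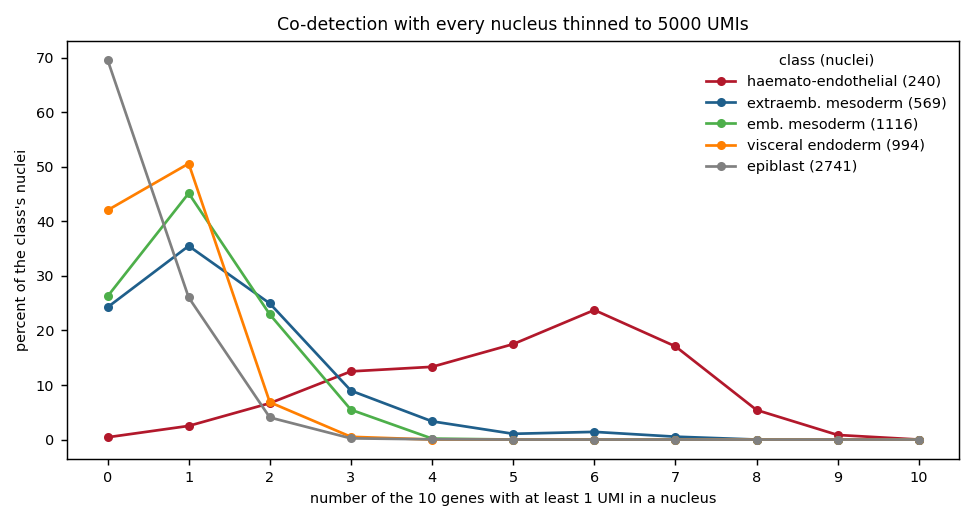
Number of the 10 genes with a UMI in a nucleus (x axis) against the percent of the nuclei of each of 5 classes (y axis), every nucleus thinned to 5000 UMIs. The haemato-endothelial-like curve has its peak at 6 genes, and the other classes at 0 or 1.

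Within the class the members did not all go together. Of 45 pairs, 14 were such that each gene was detected more often in nuclei with the other than in nuclei without it, with intervals that did not overlap whichever gene split the nuclei. In 3 pairs it was detected less often, and 28 were neither. Pairs of other genes were not read in this way, here or in other mesodermal nuclei below. The counts of pairs thus have no background, and whether they are particular to the members was not tested. All 14 lay among Tal1, Lmo2, Runx1, Fli1, Flt1 and Tek, and every pair of these 6 was among them except Tal1 with Runx1. Tek was detected in 58.7% of nuclei with Fli1 (50.01 to 67.0) and in 17.6% of those without (10.8 to 26.4). Runx1 was detected in 71.0% of nuclei with Lmo2 and in 43.1% without.

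The 3 opposite pairs all held Etv2. Runx1 was detected in 45.0% of nuclei with Etv2 (36.8 to 53.3) and in 80.2% of those without (70.6 to 87.8). For Fli1 the shares were 48.3% and 72.5%, and for Tek 32.2% and 56.0%. Tal1 showed no such gap (55.7% and 58.2%). In other mesodermal nuclei 36 pairs could be read. Of these, 14 were detected more often together, among them Etv2 with Tal1, Runx1 and Kdr, 0 less often, and 22 were neither. There Runx1 was detected in 26.9% of nuclei with Etv2 (20.8 to 33.7) and 16.8% without (14.9 to 18.8). There both genes were higher in the extraembryonic than in the embryonic group. The difference between the classes was not tested.

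**Figure D3:**
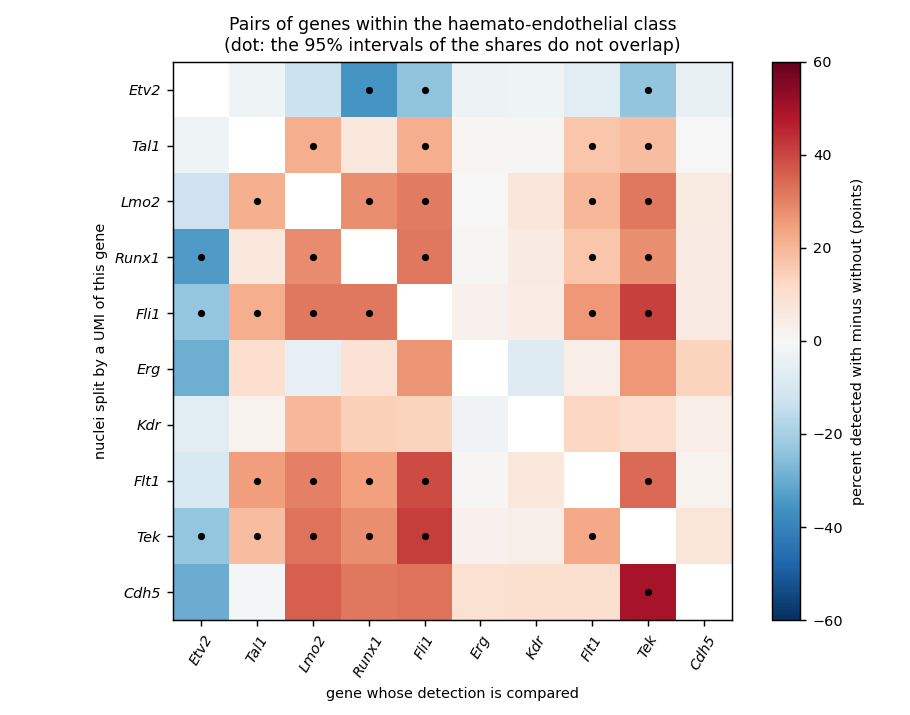
Pairs of genes in 240 haemato-endothelial-like nuclei thinned to 5000 UMIs. Rows split the nuclei by a UMI of that gene, columns give the gene compared, colour gives the percent detected with minus without, in percentage points, and dots mark intervals that do not overlap (the Tek dot of the Cdh5 row rests on 9 nuclei and has no counterpart); the Etv2 row is blue for Runx1, Fli1 and Tek, while the block of Tal1, Lmo2, Runx1, Fli1, Flt1 and Tek is red.

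Marker lists that hold no member were summed over the same splits. In nuclei with Runx1, the haemato-endothelial markers summed to 408 CPM against 277 CPM without it (1.47-fold; 1.29 to 1.68), and the extraembryonic mesoderm markers to 217 against 332 CPM (0.652-fold; 0.563 to 0.754). Nuclei with Tek differed likewise, 1.48-fold (1.30 to 1.68) and 0.723-fold (0.619 to 0.844). Embryonic mesoderm markers were at 0.820-fold (0.779 to 0.863) with Runx1 and 0.796-fold (0.754 to 0.840) with Tek. In nuclei with Etv2 the haemato-endothelial markers were at 0.871-fold (0.765 to 0.991), the extraembryonic mesoderm markers at 1.33-fold (1.14 to 1.56) and the embryonic mesoderm markers at 1.20-fold (1.14 to 1.27). Primitive streak markers were at 1.22-fold (1.05 to 1.40) with Etv2, 0.845-fold (0.739 to 0.966) with Runx1 and 0.832-fold (0.724 to 0.955) with Tek. All of these were under 2-fold. Visceral endoderm markers, of the class next highest in Runx1 RNA, were at 1.17-fold (1.09 to 1.26) in nuclei with Runx1, 0.926-fold (0.862 to 0.995) with Etv2 and 1.07-fold (0.993 to 1.14) with Tek. Epiblast markers lay between 0.909-fold and 0.968-fold for the 3 splits, with intervals that included 1. The part of other cell types in these differences was not tested.

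Around the members, part of the peaks differed. Of the 212 peaks, 58 were called higher in the haemato-endothelial-like class than in all other nuclei (27.4%; background 6.60%) and 11 lower (5.19%; background 9.12%). The median log2 fold was 0.46 for member peaks and -0.15 for all peaks tested, so scaling on that median raises all accessibility folds slightly and gives 61 higher. RNA clusters at resolution 0.5, with 20 components or with doublet calls kept gave no haemato-endothelial-like class, so these counts have no value there. Promoter peaks, those within 1000 bp of a listed start, made up 6 of the 58 (6 of 15 promoter peaks; background 3.31%), and distal peaks 52 (of 197; background 7.01%). Distal member peaks are those away from the member's own starts, while the 7.01% is over peaks away from the starts of all genes. Against other mesodermal nuclei, 45 of 160 member peaks tested were higher (background 7.04%) and 10 lower (background 12.3%). Between other mesodermal and non-mesodermal nuclei, 45 of 211 were higher (background 11.3%) and 26 lower (background 17.8%).

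For Fli1 and Runx1 the higher peaks lay away from the promoter. Fli1's promoter peak stood at 0.665-fold (0.410 to 1.02), while a peak 40.6 kb upstream of its start, chr9:32581814-32582668, reached 62.1-fold (43.3 to 89.5; 28.1 against 0.453 peak counts per 1000000, peak CPM). A second peak 14.8 kb upstream, chr9:32556001-32556826, reached 41.6-fold. Both were also above other mesodermal nuclei, at 25.5-fold and 22.3-fold. The peak over the RefSeq 5′ end of Fli1, chr9:32542927-32543749, was counted as distal and stood at 1.57-fold, not called. For Runx1, both promoter peaks lay at the downstream start, and no peak lay within 1000 bp of the upstream start. Runx1's promoter peaks were at 0.812-fold and 1.404-fold, and 9 of its 38 peaks were higher, led by peaks 3.9 kb (19.4-fold; 13.8 to 26.9) and 24.4 kb (15.3-fold; 10.1 to 22.6) downstream of the upstream start. Enhancers are known within the Runx1 gene and downstream of Tal1. Whether these peaks are those elements was not tested.

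Tal1's promoter peak was higher (2.29-fold; 1.87 to 2.77), as were 6 of its 14 distal peaks. Measured from the upstream start, those 15.4, 19.2 and 39.5 kb downstream reached 7.57-fold, 7.01-fold and 4.09-fold, and that 3.7 kb upstream 4.22-fold. Etv2's peak centred 578 bp before its start, chr7:30635998-30636861, was 5.16-fold higher (4.17 to 6.34) and 3.28-fold higher already in other mesodermal over non-mesodermal nuclei. Of the 17 Lmo2 peaks, 1 was higher (24.0 kb downstream of its downstream start, 3.65-fold), a share of 5.9% that is near the background of 6.60%. Its distal peaks summed to 1.02-fold (0.804 to 1.27) and the promoter peaks to 1.396-fold, beside 60.6-fold in RNA.

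Erg differed between its ends. The peak at its downstream start, chr16:95459062-95459913, which holds the printed Erg promoter, was 36.7-fold higher (25.2 to 53.0) than in all other and 16.0-fold higher than in other mesodermal nuclei. The peak at the upstream start stood at 1.003-fold (0.646 to 1.49). Erg RNA was detected in 15 of the 250 nuclei of the class.

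Among the receptors and the cadherin, Tek and Cdh5 had promoter peaks that were called higher. The peak at the Tek start, chr4:94738887-94739787, was 11.5-fold higher (8.25 to 15.7), and that at the Cdh5 start, chr8:104101127-104102038, 13.7-fold higher (8.89 to 20.7). Summed promoter peaks did not differ beyond counting error in other mesodermal over non-mesodermal nuclei for either gene (0.907; 0.641 to 1.26 for Tek, and 0.793; 0.424 to 1.39 for Cdh5). Kdr had a promoter peak that differed little (1.55-fold) and 12 of 19 distal peaks higher. One, chr5:75961986-75962866, inside the gene 16.0 kb downstream of its start, was 40.6-fold higher (28.0 to 58.6) and 21.0-fold above other mesodermal nuclei. Summed distal Kdr peaks were 4.64-fold higher (4.39 to 4.90) in other mesodermal than in non-mesodermal nuclei, 13 of the 19 were called higher there, and one 49.2 kb downstream was 27.3-fold there. The peaks at 26.5 and 30.2 kb upstream were 24.0-fold and 23.0-fold in other mesodermal nuclei but 1.07-fold and 1.01-fold between the haemato-endothelial-like class and other mesodermal nuclei. Flt1 had 3 of 25 peaks higher, at most 5.28-fold.

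**Figure D4:**
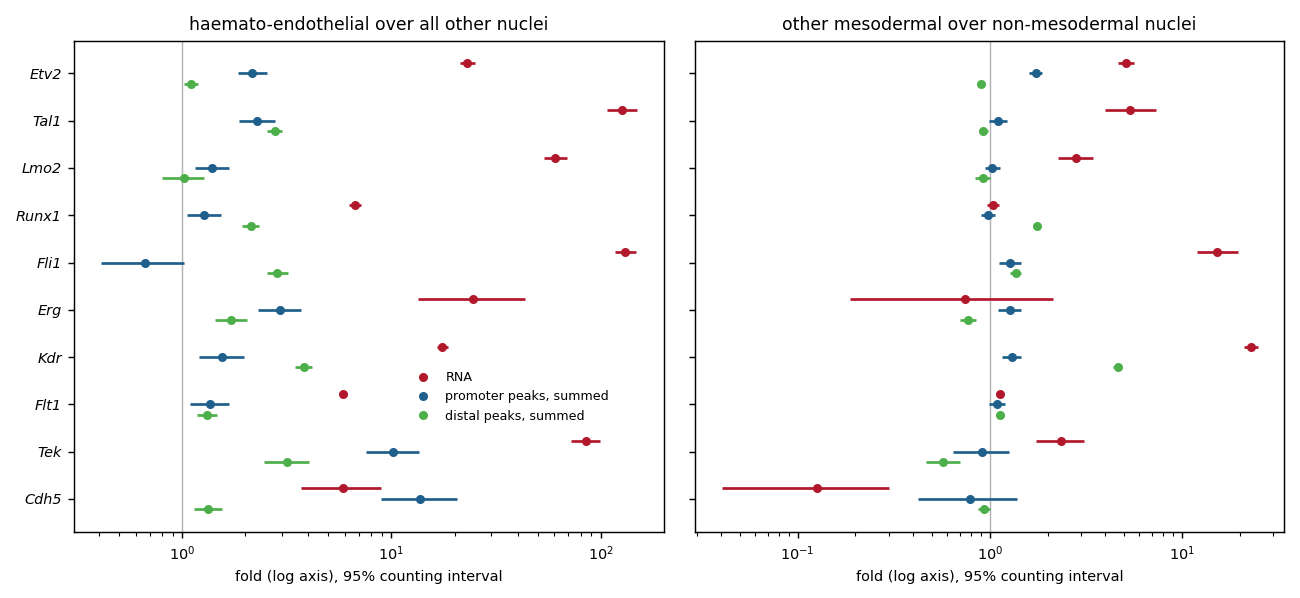
Fold of RNA (red), of summed promoter peaks (blue) and of summed distal peaks (green) for each gene, on a log axis with 95% counting intervals, for haemato-endothelial-like over all other nuclei (left) and other mesodermal over non-mesodermal nuclei (right). RNA folds exceed both summed accessibility folds in every gene but Cdh5 on the left. The sums mix raised with unchanged peaks. Single peaks also exceeded the RNA fold in Erg (36.7 against 24.5), Kdr (40.6 against 17.5) and Runx1 (19.4 against 6.69). Kdr has the highest distal fold on the right (4.64).

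**Figure D5:**
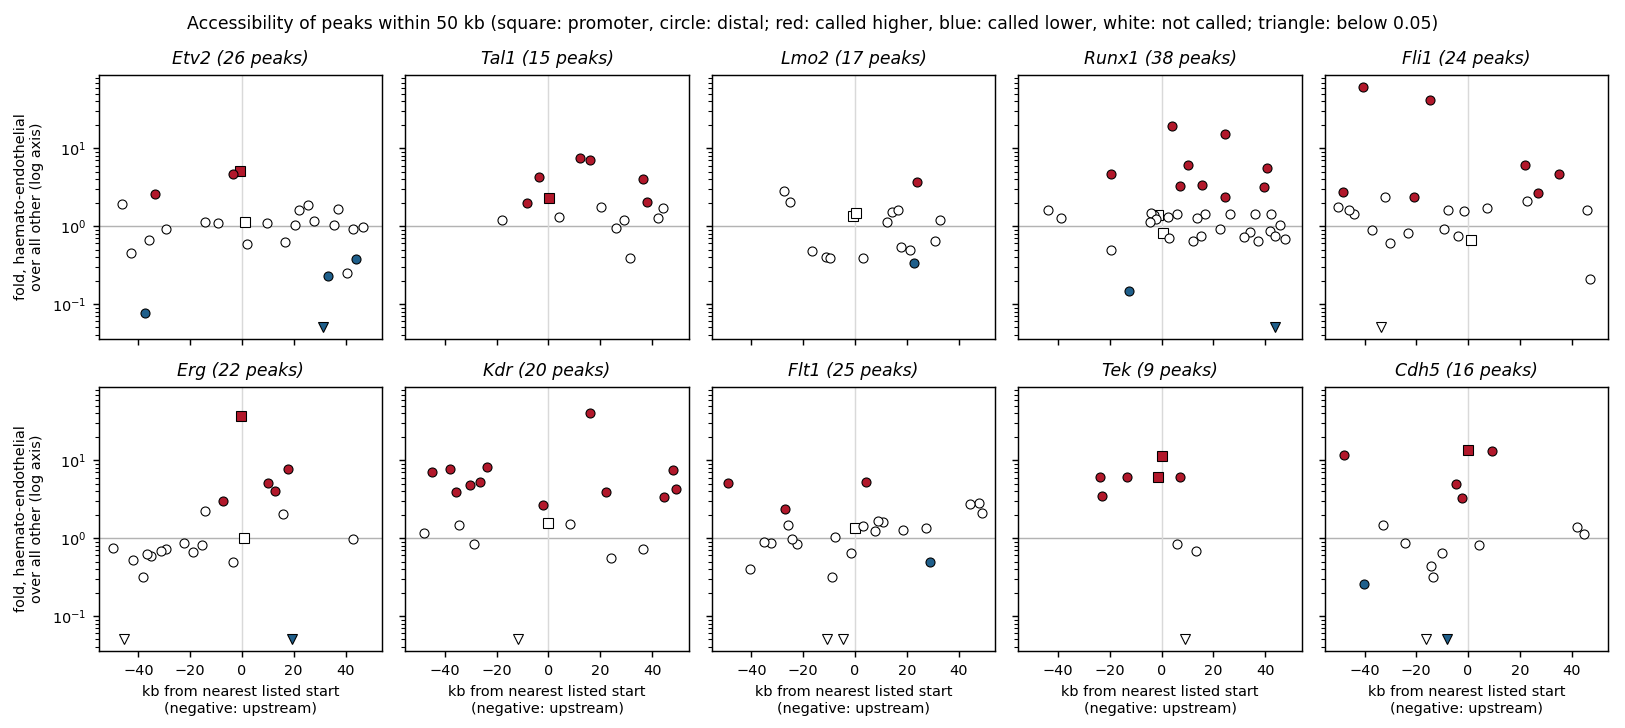
Fold of each of the 212 peaks, haemato-endothelial-like over all other nuclei, on a log axis, against its distance in kb from the nearest listed start (negative is upstream). Squares are promoter and circles distal peaks, red and blue mark peaks called higher or lower, white peaks not called, and triangles lie below the axis; only Etv2, Tal1, Erg, Tek and Cdh5 have red squares.

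Peaks were then read in other classes that held a member's RNA. These classes were picked after the RNA levels were seen, and both the class named and the haemato-endothelial-like class were compared with the nuclei outside both. Both folds thus share their reference nuclei, and the levels are given side by side. RNA levels and peaks come from partly different nuclei. Visceral endoderm-like nuclei numbered 1061 by accessibility and 1662 by RNA, with 985 in both. Extraembryonic mesoderm-like nuclei numbered 621 and 705, with 429 in both. The haemato-endothelial-like background differs slightly with the class left out, and lay between 6.54% and 7.04%. Etv2 had 2 of 26 peaks higher in extraembryonic mesoderm-like nuclei, a share below the background of 9.70%, and 3 in the haemato-endothelial-like class (background 7.03%). Its promoter peak held 25.8 peak CPM in the first, 40.0 in the second and 6.52 in the rest. Fli1 had 4 of 24 higher in extraembryonic mesoderm-like and 7 in haemato-endothelial-like nuclei (the same backgrounds), and its peak 40.6 kb upstream held 1.34, 28.1 and 0.392 peak CPM. Runx1 had 7 of 38 peaks higher in visceral endoderm-like nuclei (background 12.4%) and 9 in haemato-endothelial-like nuclei (6.54%), and 5 of 38 in parietal endoderm-like nuclei (8.75%). The visceral endoderm peak with the largest fold, 38.9 kb upstream of the downstream start, held 4.82 peak CPM there, 1.44 in the haemato-endothelial-like class and 0.601 in the rest. The Runx1 peak 3.9 kb downstream of the upstream start held 0.524, 20.7 and 1.15 peak CPM in the same order. Flt1 had 4 of 25 peaks higher in parietal endoderm-like nuclei (background 8.75%), 3 in anterior streak, node and definitive endoderm-like nuclei (8.14%) and 3 in the haemato-endothelial-like class with either left out (6.61% and 6.65%). Its peak 27.2 kb upstream was at 24.8, 26.0 and 27.1 peak CPM in these classes, and that 35.3 kb upstream at 64.7, 38.5 and 16.0. Cdh5 had 7 of 16 peaks higher in ectoplacental cone and giant cell-like nuclei (background 7.84%) and 5 in the haemato-endothelial-like class (6.59%). The first class held 479 nuclei by RNA but 172 by accessibility; 169 were in both, and nuclei with Cdh5 numbered 30 and 29. The Cdh5 promoter peak held 5.75 peak CPM in the first, 12.3 in the second and 0.732 in the rest, and was called higher in both. The peak 9.3 kb downstream was at 14.5, 13.1 and 0.528, and that 40.2 kb upstream at 47.6, 2.46 and 8.18. Kdr had 11 of 20 peaks higher in embryonic mesoderm-like nuclei (background 9.34%) and 13 in the haemato-endothelial-like class (7.04%), and with extraembryonic mesoderm-like nuclei in their place 12 (9.70%) and 12 (7.03%). Beside embryonic mesoderm-like nuclei, the peak 26.5 kb upstream held 18.1 peak CPM in the first, 21.7 in the second and 2.58 in the rest, and that 24.1 kb downstream 15.4, 2.26 and 2.81.

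Accessibility was then compared between nuclei of 1 class by the member RNA detected in them. Within embryonic mesoderm-like nuclei (by RNA) the 212 peaks together held 1018 peak CPM (984 to 1053) at 0 members detected. They held 1018 at 1, 1017 at 2 and 1144 (1046 to 1248) at 3 or more, the first and last intervals overlapping. In extraembryonic mesoderm-like nuclei the values were 1047 (991 to 1105), 1121, 1134 and 1103 (1041 to 1169) in the same order, so no steady rise is shown. In haemato-endothelial-like nuclei the 212 peaks held 1489 (1311 to 1684) with 2 members and 1650 (1597 to 1704) with 3 or more. Inside that class, Tek's own peaks were 1.83-fold higher (1.26 to 2.69) in the 111 nuclei with Tek than in the 156 without, and Erg's peaks 1.43-fold (1.06 to 1.92) in the same split. The intervals of the other 8 members' peaks included 1 in that split, as did those of each of the 10 in the splits by Etv2 and by Runx1. All 212 peaks together were at 1.10-fold (1.03 to 1.17) with Tek, 1.07-fold (1.001 to 1.14) with Runx1 and 0.947-fold (0.888 to 1.01) with Etv2. Etv2's and Runx1's own summed peaks did not differ beyond counting error between nuclei with and without their RNA. The folds were 1.01 (0.877 to 1.17) and 1.08 (0.909 to 1.29). Of these peaks, 3 of 26 and 9 of 38 were higher in the class than in all other nuclei, beside 6 of 9 for Tek. A difference in single peaks could be lost in such sums and was not tested.

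Other genes of the pathway were read from lists that hold no member. The background for higher calls is 5.47% over all other and 4.94% over other mesodermal nuclei, as above. Of 11 blood transcription factors and cofactors, 9 had enough UMIs, 2 were higher than in all other nuclei (Gata2, 13.5-fold, and the Tal1 corepressor gene Cbfa2t3, 6.24-fold) and 1 lower (Myb, 0.373-fold). The 3 with most UMIs were Cbfb, the Runx1 partner (1.25-fold), the E-protein gene Tcf3 (0.910-fold) and Ldb1, which bridges the Tal1 complex (1.25-fold), none of them called. Over other mesodermal nuclei, of 7 with enough UMIs, Gata2 (8.51-fold) and Cbfa2t3 (14.8-fold) were higher and 0 lower. Spi1, a myeloid factor, had 5 UMIs in the class, under the minimum, and the erythroid factor Klf1 had 0.

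Of 8 endothelial transcription factors, 4 were higher (Elk3, 10.9-fold; Ets1, 4.63-fold; Hey2, 4.69-fold; Hey1, 2.03-fold) and 0 lower. Foxo1, Sox17 and Ets2, the 3 with most UMIs, were at 0.589-fold, 0.619-fold and 1.43-fold. Over other mesodermal nuclei the genes called differed: Elk3 (8.50-fold), Sox17 (2.52-fold) and Ets2 (2.05-fold) were higher, Mef2c (0.422-fold) was lower, and Ets1 (1.38-fold), Foxo1 (1.39-fold) and Hey1 (1.08-fold) were not called. Hey2 had too few UMIs. Of 12 ligands and receptors, 11 had enough UMIs and 4 were higher: the VEGF-C receptor Flt4 (23.4-fold; 18.7 to 29.3), the co-receptors Nrp1 (6.66-fold) and Nrp2 (7.57-fold), and Notch1 (4.79-fold). Kitl, Nrp2 and Nrp1 had the most UMIs, and Kitl stood at 1.62-fold. Over other mesodermal nuclei, of 8 with enough UMIs, Flt4 (12.2-fold), Nrp2 (4.59-fold), Kit (3.71-fold) and Kitl (2.44-fold) were higher and 0 lower. Nrp1 (1.99-fold) and Notch1 (1.48-fold) were not called there.

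Of 8 surface and junction genes, 5 had enough UMIs and 3 were higher: Egfl7 (8.82-fold), Plvap (5.94-fold) and Nos3 (7.70-fold). Over other mesodermal nuclei Egfl7 (9.51-fold) and Plvap (10.6-fold) were higher, and Nos3 had too few UMIs. Mmrn2 was at 1.57-fold and Emcn had 0 UMIs in the class. The embryonic globin genes Hbb-bh1, Hbb-y and Hba-x had 0 UMIs in both groups, which in the class allows up to 1.06 CPM by a limit of 3 counts and 1.30 CPM by the two-sided exact Poisson interval used for the levels above.

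The genes most like each member were found from Pearson r of log2(CPM + 1) over the 15 accessibility clusters, among genes with at least 200 UMIs; these r describe clusters of 1 pool that share depth and library. Hapln1 led for Etv2 (r = 0.97) and Tal1 (0.98), Tal1 for Lmo2 (0.98), Dusp2 for Fli1 (0.98) and Adam12 for Tek (0.97). Runx1 was nearest to Adgra2 (0.96), Kdr to Fgf3 (0.96), Erg to Cped1 (0.93), Flt1 to Efemp2 (0.89) and Cdh5 to Entpd1 (0.93). Adam12 was among the 3 nearest of Tal1, Lmo2, Fli1 and Tek, and Hapln1 of Etv2, Tal1, Lmo2 and Fli1. Among members, r was 0.98 for Tal1 with Lmo2 and 0.96 for Tal1 with Fli1, but 0.54 for Runx1 with Flt1 and -0.35 for Flt1 with Cdh5. Tal1, Lmo2, Fli1 and Tek were low outside the haemato-endothelial-like and extraembryonic mesoderm-like classes, so their r rests largely on few clusters.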

How the data were processed

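Nuclei of pooled E7.0 mouse embryos were profiled as 1 RNA and 1 accessibility library. The authors deposited 1 matrix of raw counts (UMIs per gene and counts per peak), made with Cell Ranger ARC 2.0.0 on mm10 per the submitters' processing notes; replicates were not part of it. Of the nonzero peak values 86.4% were even, as cut sites of fragments give, so peak intervals were computed from estimated fragments (each count divided by 2 and rounded up). Positions are those of the files and were used as given for mm10 (GRCm38).

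Barcodes with at least 1000 UMIs, 500 genes and 1000 peak counts, at most 20% mitochondrial UMIs and no Scrublet doublet call (1154 barcodes, 7.52%, expected rate 0.1) were kept. RNA was clustered on 2000 variable genes without the 10 members, accessibility on peaks without the 212 near them, with 30 components, 15 neighbours and Leiden resolution 1 (scanpy 1.11.5, leidenalg 0.10.2). This gave 20 RNA and 15 accessibility clusters, named by their marker lists; how lists were scored for a name was decided with the data in view. Accessibility clusters of 2532 nuclei stayed unnamed, with a median of 4463 peak counts.

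Members and lists were chosen with earlier results of these data known. The rule for named genes and peaks took the 10 members, the 3 genes most like each, the 3 genes with most UMIs of each pathway list, and for each member its promoter peaks and its distal peak with the largest fold. Further peaks, list genes with a call and the genes read in nuclei with Cdh5 were named after their values were seen. Summed counts per class were scaled to 1000000 counts (CPM) and compared by fold with exact conditional Poisson intervals. Poisson sums were simulated for the comparison of haemato-endothelial-like with all other nuclei (17671 genes). Of genes changed 4-fold, 100 of 100 were called higher, and of those changed 1.5-fold, which is under the 2-fold threshold, 0 of 100. Of 17471 unchanged genes, 138 were called in either direction. These sums held no spread between nuclei, so error from UMIs gathered in few nuclei was not covered. The changed genes were drawn from those with at least 1000 UMIs, which Tal1 (738), Tek (703), Cdh5 (239) and Erg (58) did not reach. Sequences came from RefSeq tables (GRCm38.p6); sequences of distal peaks were not analysed here.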

Additional observations from a re-analysis of the deposited data

How the results depend on the processing

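The count of members higher in haemato-endothelial-like than in all other nuclei was 10 under every alternative run, and over other mesodermal nuclei between 7 (fold threshold 4) and 10 (no filter on low counts). The sizes held less well: of the RNA folds of members under the alternatives, 133 stayed within the interval reported, 97 moved outside it and 8 turned direction; over all other nuclei Tal1 (126) ranged from 102 to 173, Fli1 (131) from 121 to 205 and Tek (84.6) from 59.0 to 103. The 6 members higher in other mesodermal than in non-mesodermal nuclei became 3 with resolution 0.5, with 20 components, with doublet calls kept and with all peaks kept in clustering. In those 4 settings the haemato-endothelial-like class grew from 250 to 364, 369, 415 and 361 nuclei. In that comparison Tal1 came to 0.86-fold (resolution 0.5), 0.67-fold (doublets kept) and 0.88-fold (all peaks), and Tek to 0.75-fold (resolution 0.5), 0.44-fold (20 components), 0.85-fold (doublets kept), 0.81-fold (all peaks) and 0.93-fold (classes from RNA clusters). With the fold threshold at 4, the 58, 45 and 45 peaks called higher in the 3 comparisons became 38, 19 and 17. Within 25 kb, where fewer peaks are counted, those over all other and those of other mesodermal over non-mesodermal nuclei became 38 and 24. The share of nuclei with at least 3 members was 80.8% (resolution 0.5), 80.8% (20 components), 80.2% (doublets kept), 78.2% (3000 UMIs) and 98.0% (not thinned), against 90.4%.

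RNA clustering at resolution 0.5, with 20 components or with doublets kept gave no haemato-endothelial-like class, so the 2 peak counts for that class have no value there. The Erg fold over other mesodermal nuclei has no value at resolution 0.5 or with all peaks kept, where those nuclei held 0 Erg UMIs. The motif search in distal peaks was not run. No paired analysis was possible because each assay has 1 library. With 19 and 25 UMIs in the class, counting error limits the folds of Erg and Cdh5.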
